A study of Homo sapiens with 3 samples.

Results

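The transcripts described here are those of 34 genes for core proteins of the spliceosome, the machine that removes introns from pre-messenger RNA. They were chosen by function, with earlier results of these data known. The genes encode proteins of the U1, U2 and U4/U6.U5 particles, the Sm proteins, the U2 auxiliary factor, PRPF19, SRRM1 and SRRM2. A member's peaks were the deposited peaks carrying its Ensembl gene ID, which made 289 of 50800 deposited peak lines and lay in 27 of the 34 genes. The other 7 genes had no peak in any list and so no Ensembl ID to be matched. The data come from easyCLIP, in which ultraviolet light bonds RNA to a protein and the RNA recovered with that protein is sequenced. The tagged protein was HNRNPA0, which belongs to the hnRNP A/B proteins, carried an HA tag, and was studied for its contacts with G-quadruplex RNA in living cells. All 3 replicates belonged to 1 group: HEK293T cells labelled WT, a human embryonic kidney line, transfected with 750 ng of the expression vector per 15 cm plate and irradiated the next day at 254 nm with 0.3 J/cm2. Lysate of about 2 mg per replicate was bound to anti-HA beads, its RNA was cut for about 3 min by RNase I (0.02 U/uL), and the replicates were pooled once each carried a barcode adapter. The vector supplies HNRNPA0 on top of the cells' own, no control library was used here, and the labels do not say whether the replicates came from separate cultures.

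Each intron is recognised in steps. The U1 particle pairs with the 5' splice site, U2AF reads the 3' splice site, and the U2 particle with its SF3A and SF3B complexes settles on the branch point. The U4/U6.U5 tri-snRNP then joins, and PRPF8, the largest U5 protein, holds the catalytic centre while the helicase SNRNP200 unwinds U4 from U6. The Sm proteins form a ring around the U1, U2, U4 and U5 RNAs, and SRRM1 and SRRM2 are serine- and arginine-rich proteins of splicing complexes and nuclear speckles. Many RNA-binding proteins bind the messages of other splicing proteins, and hnRNP A proteins are known for binding sites built on UAG.

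Sequence could be read at only 2 places under these peaks, where a peak reached into the first 50 bases after the start site in a RefSeq promoter table of build GRCh38.p14. Both are shown because they are the only peak bases open to inspection, and both are read 5' to 3' on the RNA's strand. The first lies in SNRPB, at chr20:2470740-2470769 on the minus strand. Its capitals mark the 27 readable bases that lie inside a deposited peak of every replicate. The stretch shared by those peaks runs on to base 2470727, past the bases that could be read. Those 3 peaks carry a second gene ID, ENSG00000256566, which lists peaks inside SNRPB, and the peaks under SNRPB's own ID do not cover these bases in every replicate. The second is the first 30 bases of the SNRPE peak of replicate 3, at chr1:203861863-203861892 on the plus strand, and its capitals mark runs of 2 or more G.
SNRPB: gggAAATCGGCTGTGGGAGAGAGGCTAGGC
SNRPE: ttgaaccgtgatGGtGGGGaGGtGGtcttg
The 27 bases of SNRPB hold 12 G, against a median of 9 over the same stretch of 35116 promoter windows, and 22.0% of the windows hold as many. They hold TAG and TAGG once each, which 16.5% and 5.4% of windows hold, and GGG once, which 42.8% hold. The motif GGGG, held by 15% of windows, was not found in them, nor was TTTT, held by 6.72%. Neither ATTTA, held by 1.1%, nor AGAT, held by 6.71%, was found. Only the RNA's strand was searched, and each TAGG match also counts as a TAG match. The 30 bases of SNRPE hold 14 G, against a median of 10 over the same stretch of the windows, and 15.9% of windows hold as many. Of the 14, 10 lie in the 4 runs in capitals, and the share of windows with such runs is not given here. That SNRPE peak held 3 reads and met no peak of another replicate. These matches describe letters and not binding sites.

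Most of the 34 genes held peaks, nearly all of them low. A peak in any replicate was found in 27 of 34 members (79.4%), against 27.9% of 20037 protein-coding genes, and a peak in every replicate in 21 of 34, against 14.2%. Peaks of a gene that overlapped on 1 strand were joined into a region, and 7 members (20.6%) held a region with a peak of all 3 replicates, against 5.99% of protein-coding genes. Those 7 were SNRNP40, SRRM2, U2AF2, SNRPG, SNRPF, SNRPD1 and PRPF8, with 11 such regions in all. A region of 2 or more replicates was held by 17 members, against 12.7% of protein-coding genes. Among genes with a peak in every replicate, the members with a region in all 3 were 7 of 21 (33.3%), against 42.1%, and among genes with a peak in any replicate they were 7 of 27 (25.9%), against 21.5%. The members' share was thus below or above that of protein-coding genes depending on the genes counted. A gene counted only if a gene ID was tied to it alone, which can lower the shares over protein-coding genes. Taken by position, the members with a peak in any replicate were still 27. The members were also chosen with earlier results of these data known. With a single group of samples no contrast could be tested, so these shares stand side by side as descriptions. RNA levels were not measured in the files, and the part of transcript abundance in these counts was not tested.

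The nuclear chromosomes held 15601, 15426 and 17727 distinct peaks with summed read numbers of 100038, 99141 and 114203 in replicates 1, 2 and 3, where the read number is the whole number that ends a peak's deposited name, read here as the reads in the peak. The members held 97, 99 and 93 peaks and summed read numbers of 484, 489 and 416, which is 0.447% ± 0.0719 of the nuclear total (SD, n = 3). The share was 0.484%, 0.493% and 0.364%, so replicate 3, the list with the most peaks, gave the members the smallest share of the nuclear total. With mitochondrial peaks in the total the share was 0.184% ± 0.00419 (SD, n = 3), and replicate 3 was no longer the lowest. The median read number of a peak was 4 among members and 4 over all nuclear peaks in each list, and the lists hold no peak under 3. Peaks of 10 or more reads made up 4.83% ± 2.11 of member peaks and 10.7% ± 0.868 of nuclear peaks (SD, n = 3). As a check of the cell line, a peak was found in 0 of 10 marker genes of other tissues, against 27.9% of protein-coding genes. Of 4 genes listed for the kidney and HEK lineage, VIM and NEFM held a peak and NEFL and PAX2 held none. So few genes cannot settle the cell line.

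**Figure D1:**
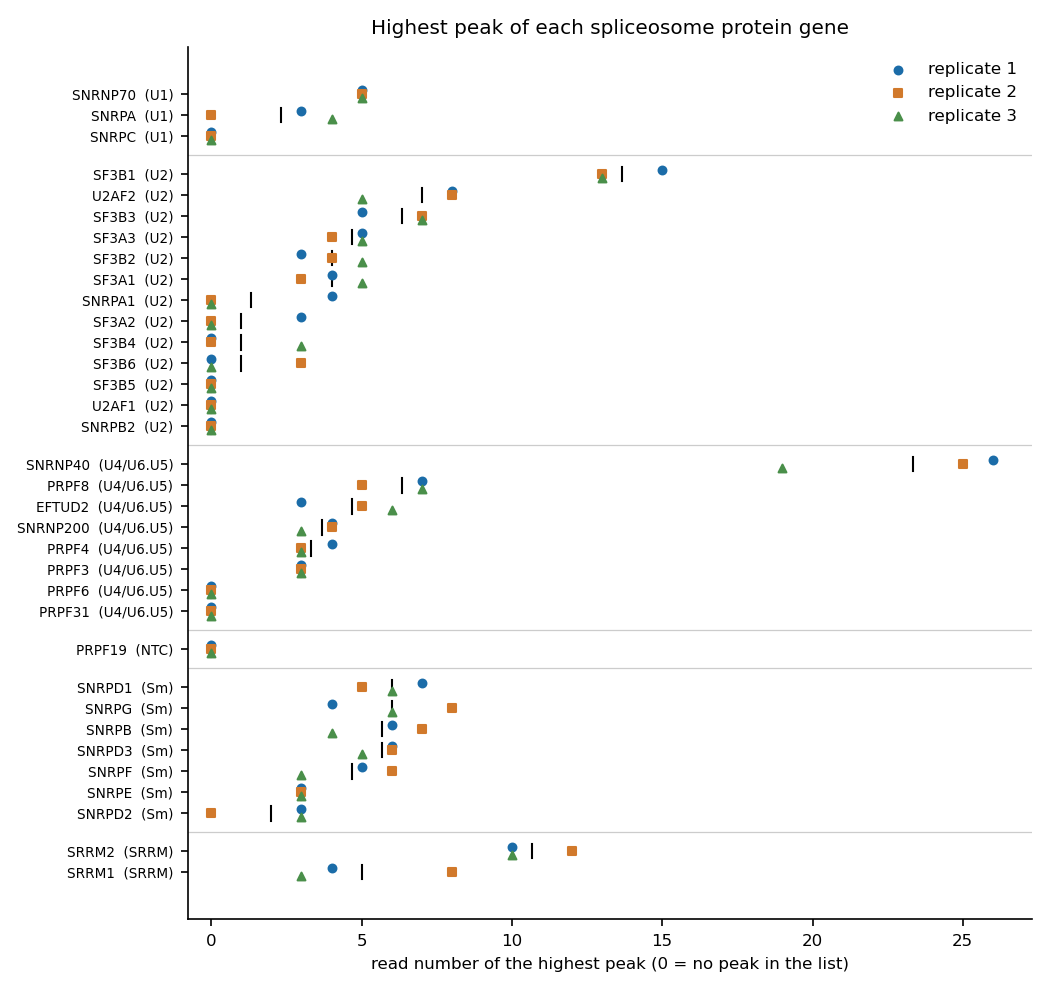
Read number of the highest peak of each of the 34 genes in replicates 1, 2 and 3 (points), with the mean as a vertical bar and 0 for a gene without a peak in that list. Genes are grouped by particle, and SNRNP40, SF3B1 and SRRM2 are the 3 genes that reach 10 or more.

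By the highest peak, 3 genes stood above the rest in every replicate: SNRNP40, then SF3B1, then SRRM2. Their ranges of 19 to 26, 13 to 15 and 10 to 12 reads did not overlap one another. The next highest value in any member and replicate was 8, reached by U2AF2, SNRPG and SRRM1, and from there down the ranges of neighbouring genes overlapped. In all, 18 members had a highest peak of 4 to 8 reads over the 3 lists and 6 never rose above 3, the lowest read number in the lists. That order did not hold per 100 nt of peak. Per 100 nt of peak, the highest peaks of SNRNP40 held 14, 13.3 and 7.79 reads and those of SF3B1 14.3, 13 and 13.1, so the order of these 2 genes was not the same in every replicate. The highest peak of SRRM2 reached 14.6 in replicate 2. Among the highest peaks of other members, short ones passed all of these. The 22 nt peak of SNRPB in replicate 1 held 27.3 reads per 100 nt, and the 18 nt peak of SNRPD3 in replicate 3 held 27.8. That SNRPD3 peak, of 5 reads, was tied as the gene's highest with a 50 nt peak of 5 reads in the same list. Some shorter peaks that were not a gene's highest were denser still. Examples are 6 reads in a 7 nt SF3B1 peak of replicate 1 and 5 reads in a 6 nt SRRM2 peak of replicate 2.

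Among the 8 tri-snRNP genes, SNRNP40 and PRPF8 held regions of all 3 replicates, EFTUD2 held 1 of 2 replicates, and PRPF6 and PRPF31 held no peak. SNRNP40 encodes a WD-repeat protein of the U5 particle. Its region lies on chromosome 1 from 31282449 to 31282711 on the minus strand, 263 nt wide, and held 26, 25 and 19 reads in replicates 1, 2 and 3. The authors' peak caller gave it p-values of 1.03e-25, 2.89e-24 and 4.20e-16, the lowest of any member peak in each list. All 3 replicates were high here, and the region carried 86.7%, 89.3% and 63.3% of the gene's summed read number. The peaks were 186, 188 and 244 nt wide, against a median member peak of 54.7 ± 2.08 nt (SD, n = 3), and shared a core of 167 nt. The centre lies 38.1% of the way along the gene, 14180 nt from its 5' end, and the RefSeq gene table places no other gene there. Among nuclear peaks it ranked above 96.9% to 97.9% of each list. The other 5 peaks of SNRNP40 held 3 to 5 reads, and none was met by a peak of another replicate.

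PRPF8 held many low peaks, 19 of 35 of them in the first 25% of the gene. Its 16, 11 and 8 peaks had summed read numbers of 63, 40 and 35, and no peak held more than 7 reads. That stretch held 52.4%, 47.5% and 65.7% of the read number, a mean of 55.2% ± 9.43 (SD, n = 3). Of its 3 regions in all replicates, 2 lie there, on chromosome 17, minus strand. The region from 1683605 to 1683671 held 4, 4 and 4 reads with summits within 5 nt of each other, and that from 1684477 to 1684553, whose centre is 352 nt from the 5' end, held 3, 5 and 5. The third, from 1651657 to 1651780 near the 3' end, held 4, 3 and 7 reads, and there the peaks of replicates 2 and 3 did not overlap each other but each overlapped that of replicate 1. The highest PRPF8 peak of replicate 1, with 7 reads, lay elsewhere and was met only in replicate 3, and the highest value of replicate 2, 5 reads, was shared by 2 peaks, 1 of them in the region at the 5' end.

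The remaining tri-snRNP genes were near the floor of the lists. EFTUD2, the GTPase of U5, had 3, 4 and 6 peaks, and its only region of 2 replicates, on chromosome 17 from 44886585 to 44886751, held 3 reads in replicate 1 and 6 in replicate 3. SNRNP200 had 2, 4 and 2 peaks of at most 4 reads, PRPF4 had 3, 1 and 1, and PRPF3 had 1 peak of 3 reads in each list. No peak of these 3 genes met a peak of another replicate, although each gene had a peak in every list. PRPF4, a protein of the U4/U6 part, had all 5 of its peaks in the final 10% of the gene, at different places. PRPF19, a ubiquitin ligase of the active spliceosome, held no peak.

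**Figure D2:**
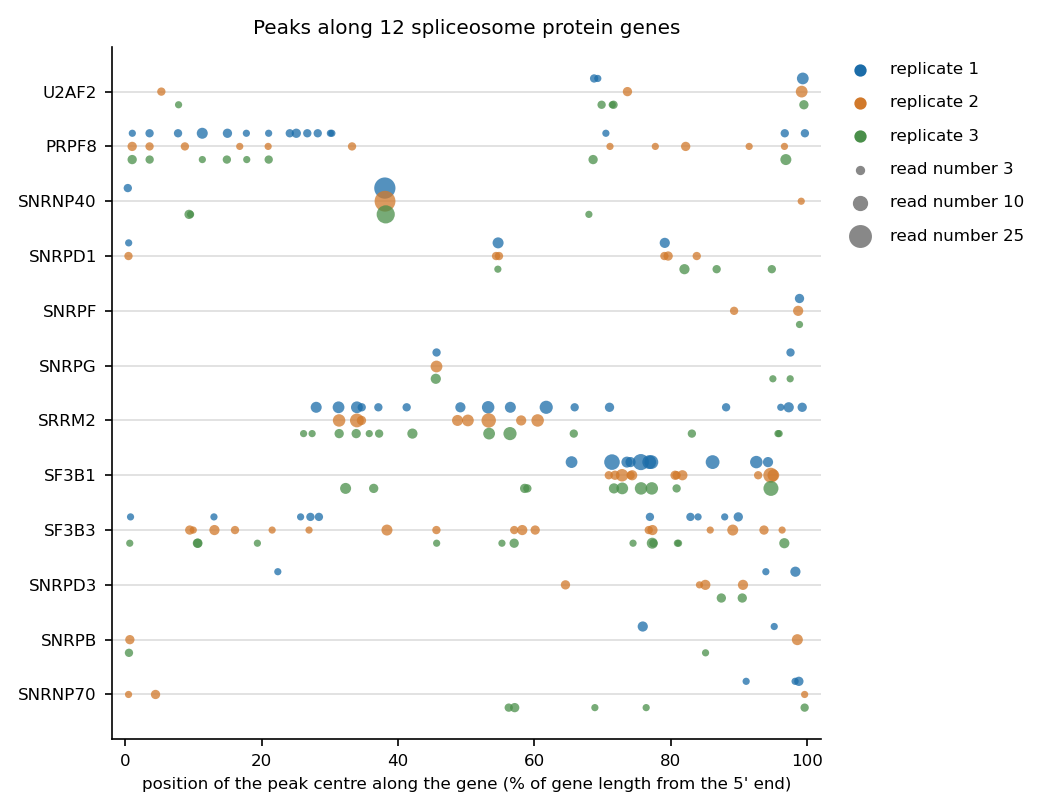
Peak centres along 12 member genes, as percent of gene length from the 5' end, coloured by replicate and with point area in proportion to the read number. SNRNP40 shows 1 large stack at 38.1%, PRPF8 19 of 35 peaks in its first 25%, and SF3B1 points from 32.3% onward.

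Of the 13 genes of the U2 particle and U2AF, 10 held a peak and U2AF2 alone held a region in all 3 replicates. SF3B1, the large SF3B subunit that grips the branch-point helix, had the second highest peaks of all members yet no such region. It held 10, 11 and 10 peaks with summed read numbers of 98, 68 and 70, and its highest peaks held 15, 13 and 13 reads. The peak of 15 in replicate 1, on chromosome 2 from 197400786 to 197400890, was met by one of 9 reads in replicate 3 and none in replicate 2. The peaks of 13 in replicates 2 and 3 met each other at 197392147 to 197392254, with summits 7 nt apart, and replicate 1 had no peak there. In total 6 SF3B1 regions were found in 2 replicates and 19 in 1. Of its 7 peaks with 10 or more reads, 4 were matched in a second list and 3 in none. No SF3B1 peak lay in the first 25% of the gene, 29 of 31 lay beyond 50%, and the last 25% carried 57.7% ± 7.21 of the read number (SD, n = 3). No deposited SF3B1 peak had fewer than 4 reads, whereas all other members with peaks except SNRPA1 had at least 1 peak of 3.

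SF3B3, another SF3B subunit, had 10, 17 and 13 peaks with summed read numbers of 36, 78 and 53. Its count was above that of every other member in replicate 2 alone, since PRPF8 and SRRM2 had 16 peaks each in replicate 1 and SRRM2 also had 13 in replicate 3. They were spread along the gene, its highest peaks held 5, 7 and 7 reads, and 5 regions recurred in 2 replicates and none in 3. The strongest of these, on chromosome 16 from 70565384 to 70565498, held 6 reads in replicate 2 and 7 in replicate 3. A pair of touching peaks of 5 reads each in replicate 3, at 70529513 to 70529530 and 70529531 to 70529586, lies inside SNORD111B, a small nucleolar RNA gene within SF3B3, and reads of the 2 RNAs were not told apart. U2AF2, the large U2AF subunit that reads the polypyrimidine tract, held its only region of all 3 replicates at its very 3' end. The region on chromosome 19 from 55674458 to 55674674 held 8, 8 and 5 reads, its centre lies 129 nt from the gene's end, and it was the highest U2AF2 peak in every list. The gene's other 8 regions were each found in 1 replicate.

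SF3A1, SF3A3 and SF3B2 had peaks in every list with highest read numbers of 3 to 5. SF3A1, a subunit of SF3A, had 3 regions of 2 replicates, of which the highest, on chromosome 22 from 30334236 to 30334339, held 4 and 5 reads in replicates 1 and 3. SF3A3, another, had 1, from 37969571 to 37969650 on chromosome 1, with 4 and 3 reads in replicates 2 and 3, and SF3B2 had none. SF3B4, SF3B6, SF3A2 and SNRPA1 each had peaks in 1 replicate alone, with at most 4 reads, and SF3B5, SNRPB2 and U2AF1 had no peak. The gene of SF3B5 spans 690 bp, the shortest of all members. The hg38 assembly is known to carry a near-identical duplicate of U2AF1, so its lack of peaks is uncertain.

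The U1 genes held little. SNRNP70, which encodes the U1-70K protein, had 3, 3 and 5 peaks, with a highest read number of 5 in each replicate. Those highest peaks lay at 98.8%, 4.45% and 57.1% of the gene in replicates 1, 2 and 3, so the equal values came from different places. Its only recurring region, on chromosome 19 from 49108454 to 49108576 close to the 3' end, held 3 reads in replicate 2 and 4 in replicate 3. SNRPA, whose protein binds a loop of U1 RNA, had 2 peaks in replicate 1 and 1 in replicate 3, of 3 or 4 reads, and SNRPC had none.

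All 7 Sm genes held a peak, and SNRPG, SNRPF and SNRPD1 held 1 region each in all 3 replicates. The SNRPG region lies on chromosome 2 from 70288060 to 70288149, 45.6% along the gene, and held 4, 8 and 6 reads. SNRPF, like U2AF2, was met at its 3' end: the region on chromosome 12 from 95866005 to 95866096 held 5, 6 and 3 reads with its centre 87 nt from the end. The SNRPD1 region, on chromosome 18 from 21623810 to 21623940, held 7, 4 and 3 reads, and replicate 2 had a pair of peaks of 4 reads there, 1 on each side of the peak of replicate 3. In replicates 2 and 3 the highest SNRPD1 peaks, of 5 and 6 reads, lay at 79.6% and 82.0% of the gene in different places. SNRPD3 had 3, 4 and 2 peaks of at most 6 reads and 1 region of 2 replicates, on chromosome 22 from 24573106 to 24573186 with 6 and 5 reads in replicates 2 and 3. SNRPD2 had 1 peak of 3 reads in replicates 1 and 3, which met each other from 45687495 to 45687566 on chromosome 19. SNRPE had 1 peak of 3 reads in each list, at 3 different places. Small Sm genes are known to have processed pseudogenes, and how reads that fit both were placed is not stated, so low Sm values are uncertain.

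SNRPB, which encodes SmB and SmB', depends on how peaks are assigned. Under its own gene ID it held 2 peaks in each list with highest read numbers of 6, 7 and 4, and no region in all 3 replicates. At the 5' end of the gene, on chromosome 20, replicates 2 and 3 had peaks of 5 reads (2470722 to 2470730) and 4 reads (2470716 to 2470761) under that ID. Replicate 1 had a peak of 3 reads at 2470727 to 2470769 under a second gene ID, ENSG00000256566, which had 5 peaks, 4 of them centred inside SNRPB. That second ID also had peaks of 5 and 3 reads there in replicates 2 and 3, and whether reads were counted under both IDs was not tested. Taken by position and strand, SNRPB gained a region in all 3 replicates, which raised the members with such a region from 7 to 8, and the SNRPB sequence printed above comes from it. A peak of 3 reads in replicate 3, from 2462975 to 2463038, lies inside SNORD119, a small nucleolar RNA within SNRPB.

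SRRM2 and SRRM1 differed in level. SRRM2, a very large protein of nuclear speckles, had 16, 8 and 13 peaks with summed read numbers of 94, 67 and 61. Its 3 regions in all replicates lie on chromosome 16, plus strand. The highest, from 2762574 to 2762685, held 9, 12 and 8 reads, the next, from 2758985 to 2759048, held 8, 11 and 5, and the third, from 2758474 to 2758548, held 8, 9 and 5. In the second of these the 3 peaks began at the same base, 2758985, and in the third they ended at the same base, 2758548. SRRM2 peaks began 26.2% of the way along the gene and 30 of 37 lay before its last 25%. SRRM1 had 4, 4 and 1 peaks with highest read numbers of 4, 8 and 3. Its 2 regions of 2 replicates were both shared by replicates 1 and 2, and held at most 8 reads.

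**Figure D3:**
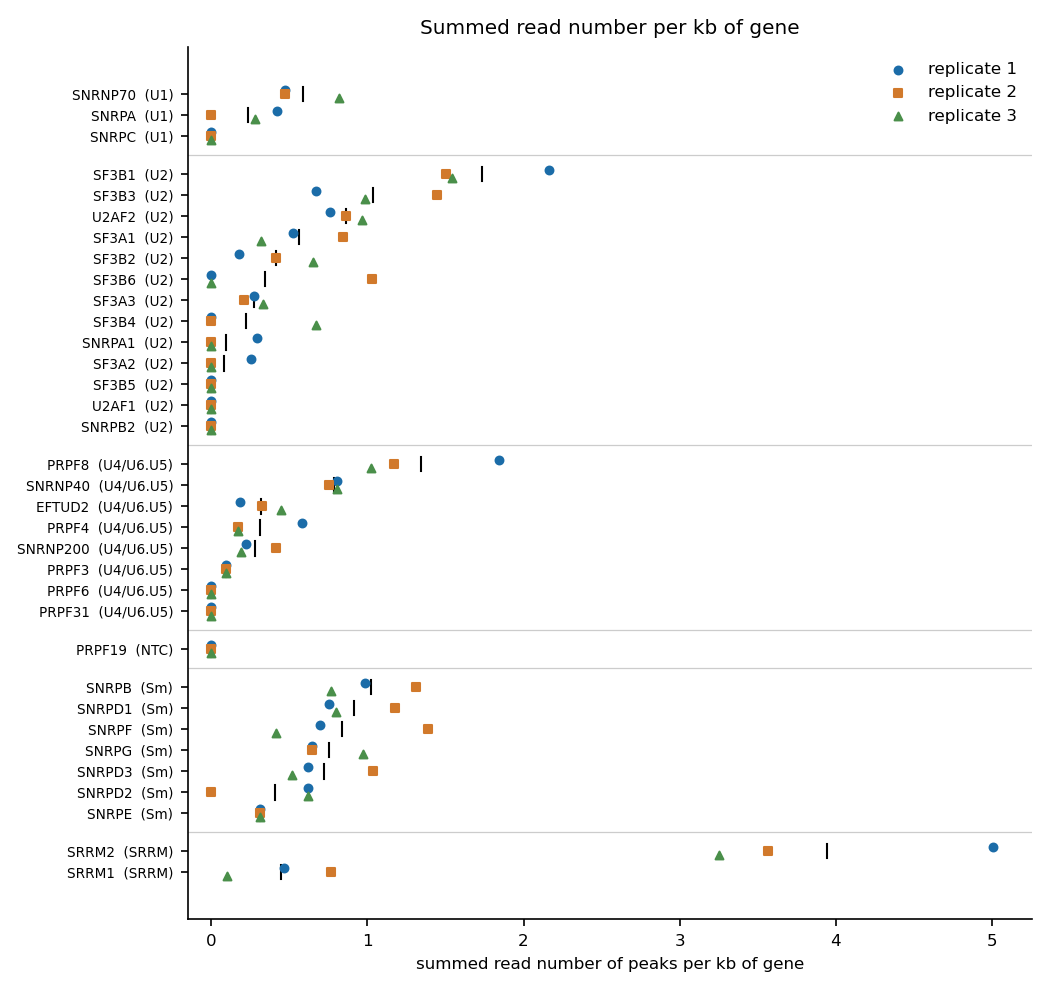
Summed read number of all peaks per kb of gene for each member in replicates 1, 2 and 3 (points) with the mean as a vertical bar. SRRM2 lies between 3.25 and 5.01, above every other member in each replicate.

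Per kb of gene, SRRM2 was the highest of the members. Its summed read number per kb was 5.01, 3.57 and 3.25 in replicates 1, 2 and 3, a mean of 3.94 ± 0.936 (SD, n = 3). SF3B1 followed with 2.16, 1.5 and 1.54, and PRPF8 with 1.84, 1.17 and 1.02, whose ranges overlap, and no other member was above 1 in every replicate. SNRNP40, first by its highest peak, had 0.788 ± 0.0310, and its range of 0.752 to 0.806 overlapped that of SNRPB, 0.765 to 1.31 (SD, n = 3). Gene intervals include introns, so a gene with long introns has a lower value per kb than its spliced message would. Longer members held more peaks: across the 34 members the Spearman correlation of gene length and number of peaks was 0.59, and it was 0.48 between length and the mean highest read number. Members share libraries and are not independent replicates, so no p is attached. PRPF6 went against that order, with no peak in 51969 bp.

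With peaks pooled over genes, the share near 3' ends was lower in the members than over protein-coding genes as a whole, a difference that was not tested. Of the 289 member peaks, 143 came from SF3B3, SRRM2, PRPF8 and SF3B1. Those genes together had a smaller share of their peaks in the final 10% than the remaining members together, so the pooled share does not describe each member. The final 10% of the gene held 22.1% ± 3.30 of member peaks against 32.0% ± 0.687 of all peaks in protein-coding genes, with 25.8%, 21.2% and 19.4% of member peaks in the 3 replicates (SD, n = 3). All 3 replicates were below the lowest value over all genes, 31.6%. The first 10% held 9.67% ± 2.45 against 7.28% ± 0.772, and there the replicate ranges overlap. Of the 11 regions in all 3 replicates, 3 had their centre in the final 10%, in U2AF2, SNRPF and PRPF8, and 2 in the first 10%, both in PRPF8. No exon annotation was used here, so positions are along the whole gene with its introns.

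**Figure D4:**
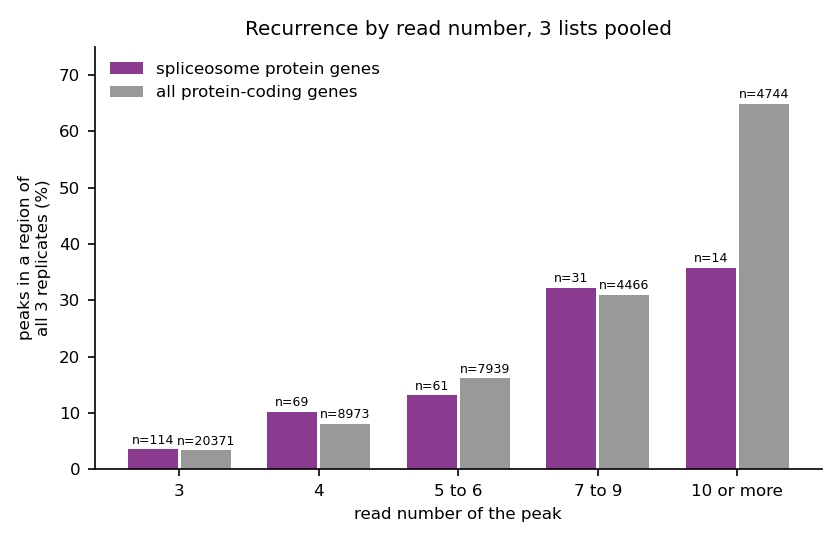
Share of peaks that lie in a region of all 3 replicates, by read number of the peak, for the members (purple) and all protein-coding genes (grey), with the 3 lists pooled and the number of peaks above each bar. Both rise with the read number, and the members reach 35.7% at 10 or more reads against 64.9%.

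Recurrence rose with the read number. Of member peaks with 3 reads, 3.51% lay in a region of all 3 replicates, against 3.36% over protein-coding genes, and of those with 7 to 9 reads 32.3% did, against 31.0%. At 10 or more reads it was 5 of 14 member peaks (35.7%), against 64.9%. These 14 peaks belong to 3 genes: 7 to SF3B1, none of them in a region of all 3 replicates, 4 to SRRM2 and 3 to SNRNP40. Over the 6 ordered pairs of replicates, a mean of 22.0% of member peaks was overlapped by a peak of the other list in the same gene, with a range of 19.6% to 24.7%, against 25% and 22.8% to 26.3% over protein-coding genes. In the 11 regions of all 3 replicates the outermost summits lay a median of 27 nt apart, from 2 nt in an SRRM2 region to 79 nt in a PRPF8 region. A summit was taken here as the middle of the short deposited stretch inside each peak.

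The same counts were made in 2 related lists. Of 70 further genes for spliceosomal and exon junction proteins, 69 were in the gene table, 46 of these (66.7%) held a peak and 9 (13%) held a region in all 3 replicates, against 79.4% and 20.6% of the members. U2SURP, a U2-associated SR-like protein, held 7 such regions with highest read numbers of 17, 28 and 28. PNN, LUC7L3, SNRNP48 and DHX15 held 2 each, and PRPF38B, RBM8A and ACIN1 held 1 each. PRPF38B had highest read numbers of 21, 27 and 15, near those of SNRNP40. Of the 12 SRSF genes, which encode SR proteins that bind exonic enhancers, all held a peak and 9 held a region in all 3 replicates. SRSF1 and SRSF3 reached highest read numbers of 50.0 ± 4.36 and 47.7 ± 0.577, against 23.3 ± 3.79 for SNRNP40 (SD, n = 3), and the replicate values of those 2 genes did not overlap with its own, which reached at most 26. These differences between lists were not tested.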

How the data were processed

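Peaks of HA-HNRNPA0 easyCLIP were deposited as 1 headerless list per replicate, so peaks were called per sample. Coordinates are hg38, and the submitters' processing notes name bedtools and deepTools, with no version. The adapters carried molecular identifiers, per the labels' protocols; whether they were collapsed, the aligner and the peak caller are not given in the sources used here. A deposited line holds a position, a strand, the authors' p-value (no adjustment stated, all under 0.05), a short stretch inside the peak taken here as its summit, and a name ending in a whole number, taken as the reads in the peak. The meaning of this number is not stated in the lists.

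The members, their role groups and the other gene lists were chosen with earlier results of these data known. A gene ID was tied to the protein-coding RefSeq gene (GRCh38.p14, 20037 such genes) that holds at least 90% of its peak centres, on the same strand where the strand was given. All 27 members with peaks were tied to 1 ID each. Within a gene ID, peaks sharing at least 1 bp and the strand were joined, a step tested on simulated peaks. In the totals, lines that repeat an interval were counted once. Full values are given for members with a region in all 3 replicates and for the 5 others with the highest mean of their highest read number; further spliceosome genes are named if they hold such a region, except 1 that is not reported here, and genes inside a named peak are named beside it. Low read numbers carry large counting error, and reads outside peaks were not analysed here. The planned count of motifs in every peak was not run, because it needs genome sequence. Python 3.11.15 and pandas 2.3.3 were used.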

Additional observations from a re-analysis of the deposited data

How the results depend on the processing

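A region shared by all 3 replicates was held by 7 members, and by 6 where peaks had to overlap by 50% each way, 4 among the 50% of peaks with the lowest p-values in a list (SNRNP40, SNRPG, SRRM2 and U2AF2), 3 among peaks of 5 or more reads (SNRNP40, SRRM2 and U2AF2) and 17 when 2 or more replicates sufficed. With 1 replicate left out it was 11 to 14, since a region then needed only 2 lists, which says nothing about the stability of the 7. Their regions numbered 11, and 6 with an overlap of 50%, 6 among those lowest p-values, 5 among peaks of 5 or more reads, 42 when 2 or more replicates sufficed and 19 to 23 with 1 replicate left out. With members taken by position there were 8 genes and 12 regions. Members with a peak in any replicate fell from 27 to 17 among peaks of 5 or more reads. The members' share of read numbers was 0.184% with mitochondrial peaks in the total, and the share of peaks in the final 10% was 26.0% among peaks in regions of 2 or more replicates. The other alternatives run, including each of the 12 highest read numbers with 1 replicate left out, moved a count by no more than 1.5 times or a value by no more than 1 SD. No paired analysis was possible because the samples form 1 group. The planned motif shares were not run, because the deposited stretches are positions without letters. Read numbers at or near 3, the lowest listed, limit what recurrence can show, and a peak missing from a list does not show absent binding.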
